A study of Mus musculus with 6 samples.

Results

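DNA replication and S-phase genes encode the machinery that copies the genome before a cell divides. The 50 genes described here were chosen by symbol, from origin licensing to chromatin copying, and all 50 were among the 18019 gene symbols of the deposited table. Poly(A) RNA was sequenced from RAW264.7, an established mouse macrophage line, which the design text gives as induced in all samples with lipopolysaccharide (LPS), a bacterial product that activates macrophages. The control group (n = 3 libraries) had no further treatment. The other group (n = 3 libraries) also received TPPU, which inhibits the enzyme soluble epoxide hydrolase. Both groups thus share the line and the LPS, and no group without LPS was analysed here. The sources used here do not give doses, times or whether each library had a culture of its own, so p-values measure the spread between these libraries, which may be technical. Values are FPKM (fragments scaled to transcript length and library size), given as mean ± SD over 3 libraries.

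Replication begins when the origin recognition complex, with CDC6 and CDT1, loads rings of MCM2 to MCM7 onto DNA in G1 phase, a step called licensing. In S phase CDC45 and the GINS complex join the ring and make it an active helicase, and primase, DNA polymerases, the sliding clamp PCNA, its loader RFC and the single-strand binding protein RPA copy both strands. Transcription of many of these genes is driven by E2F factors, which are released when cyclin-dependent kinases phosphorylate the retinoblastoma protein. Primary macrophages divide little, whereas RAW264.7 is a transformed line that proliferates in culture.

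Depth, estimated from the steps between low FPKM values, was 17.8 to 23.0 M (mega) fragments per library. For a 1 kb transcript a single fragment thus equals 0.0436 to 0.0561 FPKM. Of 10 macrophage markers 9 were at 1 FPKM or more in every library, with summed levels of 1943 to 2320 in control and 2057 to 2174 with TPPU. The exception was Mrc1, the mannose receptor gene, which was under 1 FPKM in every library. The 2 T cell markers in the table summed to 0 in control and to 0.014 to 0.109 with TPPU, and the 5 fibroblast markers summed to 1.94 to 4.87 and 1.02 to 2.32. The TPPU samples' description also cites a column named for an sh-LIS1 knockdown in another table, which was not used here. Pafah1b1, which encodes LIS1, stood at 11.7, 14.2 and 6.52 in control and 10.7, 13.5 and 14.2 with TPPU. Control replicate 3 stood apart by its highest correlation with another library across genes, 0.977, against 0.985 to 0.991 for the others. Its lowest correlation, 0.958, was that with TPPU replicate 3, which had the same lowest value. Many of the results that rest on control replicate 3 are given with and without it, but not those of every gene.

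No replication gene passed the test for a difference between TPPU and control, and the members' values leaned to the higher side with TPPU. In bulk RNA a different share of cells in S phase and a different amount of these transcripts per cell cannot be told apart. Of the 50, 48 reached 1 FPKM in at least 3 libraries and were tested, 47 of them at that level in all 6 libraries. With limma 0 of the 48 had a Benjamini-Hochberg adjusted p under 0.05 over 9728 genes, as did 0 (0%) of all genes tested, and the smallest adjusted p among members was 0.492. A positive log2 change of FPKM + 1 was found in 37 of 48, against 54.4% of all genes tested, and the median change was 0.11 against 0.02. The 3 TPPU values lay above all 3 control values in 8 members (16.7%), against 7.48% of genes, and below them in 2 (4.17%), against 7.88%. At an unadjusted limma p under 0.05 there were 5 members, against 7.89% of genes. Of these 4 (Tk1, Rfc4, Pole2 and Gins4) were higher, where 4.19% of genes were, and 1 (Cdt1) was lower, where 3.7% were. Without control replicate 3 the median was 0.11, and 12 members (25%) lay above and 2 below, against 17% and 12.4% of genes. Without control replicate 1 or without TPPU replicate 1 the number above was 13, against 11.5% and 14.5% of genes. Without control replicate 2 only 27 members were positive, against 50.8% of genes, and without TPPU replicate 1 the median was 0.06, against 0.01 over all genes. Leaving out TPPU replicate 3 gave 38 positive members, against 55.6% of genes, and a median of 0.13, against 0.02. The smallest adjusted p of a member by limma was then 0.989.

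**Figure D1:**
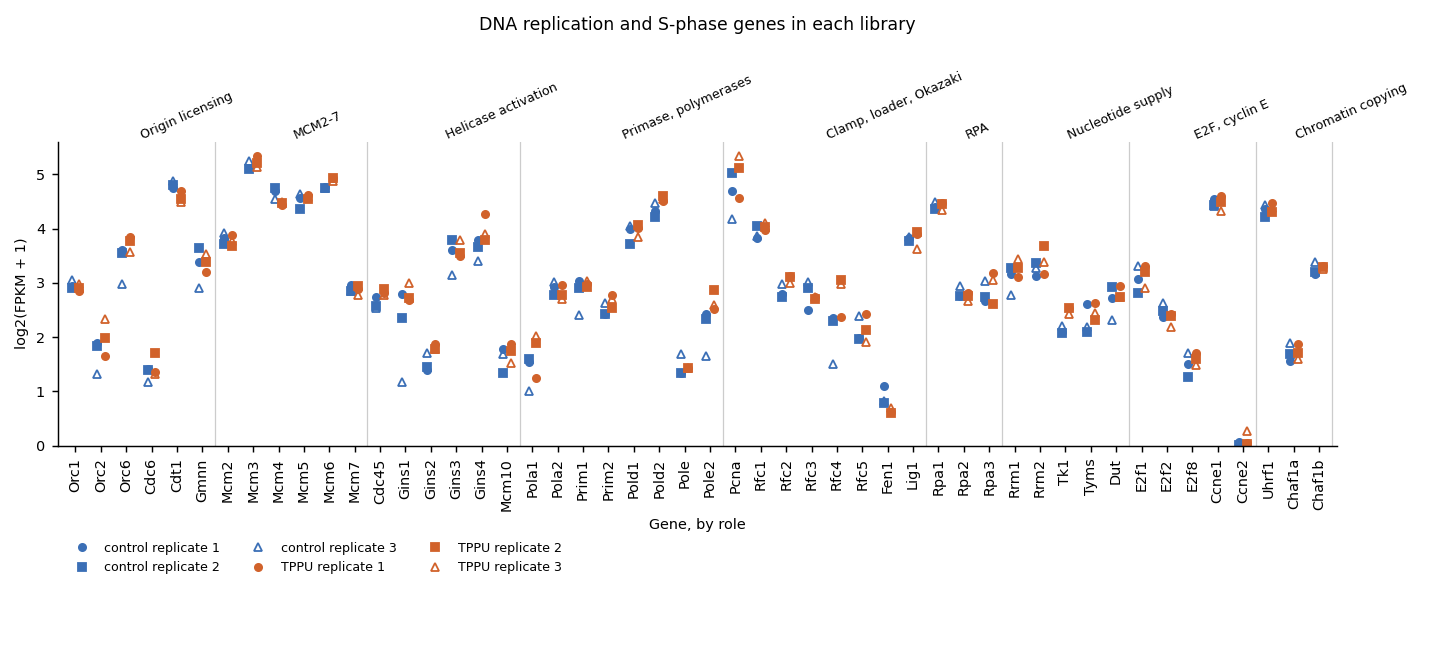
Level of each of the 50 genes, as log2(FPKM + 1) on the vertical axis, grouped by role along the horizontal axis. Each point is 1 library, with control in blue, TPPU in orange and the replicate given by the marker shape. Levels run from Ccne2, at or near 0, to Mcm3 and Pcna, and the open blue triangles of control replicate 3 lie below the other points in genes such as Gins1 and Rfc4.

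The members covered a wide range of levels. Averaged over the 6 libraries, 9 were at 20 FPKM or more, 8 between 10 and 20, 16 between 5 and 10, 15 between 1 and 5, and 2 under 1. The means per length were highest for Mcm3, at 35.5, the clamp gene Pcna, at 28.3, and the helicase gene Mcm6, at 27.6. The range of Pcna over the libraries (17.1 to 39.5) overlapped those of both others, so its place in this order was not resolved. Genes of the same protein complex did not share a level. In MCM2 to MCM7, a ring with each subunit present equally, Mcm3 was 5.59 times Mcm7 in mean FPKM, and 4.96 to 6.13 times within a library. In GINS, a tetramer, Gins4 was 6.05 times Gins2 (4.20 to 7.92 within a library). Ratios of this kind depend on the transcript lengths used for FPKM, which the sources used here do not give. The longest coding transcript is 3900 bases in Gins2 and 1349 in Gins4, and opposite-strand exons overlap 67.3% of the exonic bases of Gins2. In the RFC loader Rfc1 was 4.28 times Rfc5 (3.18 to 5.81), and in RPA the gene of the large subunit, Rpa1, was 3.46 times Rpa2 (3.23 to 3.59). The ribonucleotide reductase genes Rrm2 and Rrm1, at 9.14 and 8.10, differed by less than their spread over libraries.

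Among the licensing genes Cdt1, the MCM loading factor that is destroyed once S phase begins, was the gene whose TPPU values all lay below control. In GENCODE M21 (GRCm38) it lies at chr8:122568015-122573554 on the plus strand. Its FPKM was 25.9, 26.9 and 28.6 in control and 24.7, 22.5 and 21.5 with TPPU, or 27.1 ± 1.34 against 22.9 ± 1.65. Every TPPU value lay under every control value, with a log2 difference of -0.24 (SE 0.10, adjusted p = 0.609 by limma), or -0.20 without control replicate 3. Gmnn, which encodes geminin, the inhibitor of CDT1, overlapped between the groups, at 9.45, 11.5 and 6.50 in control and 8.25, 9.43 and 10.6 with TPPU. Orc6, a subunit of the origin recognition complex, stood at 11.1, 10.7 and 6.89 in control and 13.4, 12.7 and 10.9 with TPPU. Again the low Orc6 value was that of control replicate 3, and control replicate 1 lay above the lowest TPPU value. The log2 difference of Orc6, 0.36, was 0.16 without control replicate 3. The loader Cdc6 was the least abundant licensing gene, between 1.26 and 2.26, and Orc1, whose subunit leaves chromatin after licensing, lay between 6.17 and 7.27. Orc2, the other origin recognition gene, ranged from 1.49 in control replicate 3 to 4.05. Over the 6 licensing genes 4 changes were positive and 2 negative, with a median of 0.10, or 0.02 without control replicate 3.

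The 6 genes of the MCM ring shared no direction, and the groups overlapped in all but 2 of them. Mcm6 was at 26.2, 25.9 and 25.8 in control and 29.5, 29.7 and 28.4 with TPPU. All 3 control libraries lay close together and all TPPU values were higher (25.9 ± 0.21 against 29.2 ± 0.70), with a log2 difference of 0.17 (SE 0.08, adjusted p = 0.644 by limma). Mcm4 went the other way, at 25.0, 25.9 and 22.5 in control and 20.7, 21.1 and 21.4 with TPPU, with no overlap and a log2 difference of -0.20 (SE 0.09, adjusted p = 0.627 by limma). Mcm3 was at 33.6, 33.1 and 36.8 in control and 39.3, 36.2 and 34.1 with TPPU, where the groups overlapped only through control replicate 3. The log2 difference for Mcm3 was 0.08 (SE 0.10, adjusted p = 0.833 by limma), and from 0.03 to 0.13 with each library left out in turn. Mcm2, Mcm5 and Mcm7 overlapped too, at 11.7 to 14.1, 19.6 to 23.9 and 5.88 to 6.77 over all libraries. The median of the 6 was 0.02, the same as over all genes.

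Promoters of the set were searched because E2F control is what textbooks give these genes in common. RefSeq promoter windows (build GRCm38.p6, 250 bases before to 50 after the transcript start) were matched by symbol for 41 of the 50. The E2F words searched on both strands were TTTCCCGC, TTTCGCGC, TTTGCCGC and TTTGGCGC. The second and the last can overlap each other's reverse complement at a shared GCGC. At least 1 word was present for 15 of the 41 genes (36.6%), against 2.6% of 27025 genes with a window and 5.05% of the tested genes with one. Counted by window, a word was in 30.6% of the 49 windows of members, against 2.26% of all 32851 windows. Among other lists of the cell cycle the share was 34.8% of 23 further replisome genes, 33.3% of 18 regulators of G1 and S phase, 28.6% of 7 chromatin genes, 14.3% of 7 checkpoint genes, 0% of 10 nucleotide genes and 3.45% of 29 mitotic genes. The share of the members was thus close to that of the further replisome genes and the G1 and S phase regulators. The CCAAT box, searched in the same way, was present for 63.4% of the members and 41.1% of all genes, and for 75.9% of the mitotic genes. The words fell in 19 stretches, 10 of them wholly before the start. The stretches of 30 bases below show where the words sit in licensing, helicase and polymerase genes. They were picked for holding a word, so what they share in capitals is set by the search. Each is read 5′ to 3′ on the gene's strand, with the word in capitals.
Orc1 (chr4:108579416-108579445, plus strand): ttcggttagtgGCGCGAAAagttttctcct
Cdc6 (chr11:98908002-98908031, plus strand): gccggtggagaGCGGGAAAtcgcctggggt
Mcm5 (chr8:75109347-75109376, plus strand): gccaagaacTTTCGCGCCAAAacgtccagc
Mcm6 (chr1:128359795-128359824, minus strand): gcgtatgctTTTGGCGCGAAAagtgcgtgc
Mcm6 (chr1:128359734-128359763, minus strand): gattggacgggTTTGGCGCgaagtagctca
Mcm7 (chr5:138172030-138172059, minus strand): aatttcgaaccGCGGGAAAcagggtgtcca
Gins3 (chr8:95633507-95633536, plus strand): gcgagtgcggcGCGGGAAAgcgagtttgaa
Pole2 (chr12:69228162-69228191, minus strand): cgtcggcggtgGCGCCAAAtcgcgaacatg
Cdt1 (chr8:122568035-122568064, plus strand): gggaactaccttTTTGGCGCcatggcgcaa

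In Mcm5 and Mcm6 a pair of words on opposite strands overlapped into 1 stretch of capitals. The Mcm6 promoter is shown in full because it held the most words of any member and because Mcm6 was the MCM gene whose TPPU values all lay above control. Its 250 bases before the start (chr1:128359706-128359955, GRCm38.p6, minus strand), with the words in capitals, read as follows.
Mcm6: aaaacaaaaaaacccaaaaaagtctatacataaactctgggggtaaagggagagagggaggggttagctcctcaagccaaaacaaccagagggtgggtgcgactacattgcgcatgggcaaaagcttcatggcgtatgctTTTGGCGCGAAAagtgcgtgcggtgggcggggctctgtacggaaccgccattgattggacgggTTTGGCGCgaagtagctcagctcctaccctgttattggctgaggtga
The words lay 110 to 99 and 47 to 40 bases before the start. Changes with TPPU were set beside the presence of a word, with no test. The 15 with a word had a median log2 change of 0.06 and 10 positive changes, and the 25 tested members with a window but no word had a median of 0.13 and 21 positive changes. The levels of the 15 ran from 1.65 to 35.5 FPKM, with a median of 10.9, against a median of 6.46 in the 25. These are matches of letters in a window and say nothing of binding in these cells.

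**Figure D2:**
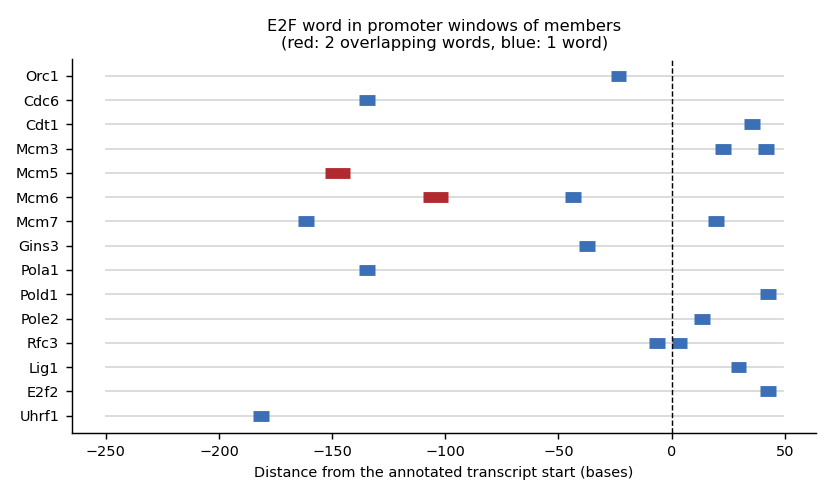
Position of the E2F words in the promoter windows of the 15 members that hold one, as the distance in bases from the annotated transcript start (dashed line, counted as 0). Grey lines span the window, blue marks are stretches with 1 word and red marks those with 2 overlapping words, which occur in Mcm5 and Mcm6 alone.

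The genes that turn the loaded ring into a helicase all had positive changes. Cdc45, which binds the ring, was at 5.64, 4.98 and 4.78 in control and 5.98, 6.43 and 5.88 with TPPU. Its groups did not overlap, with a log2 difference of 0.21 (SE 0.11, adjusted p = 0.644 by limma). Gins4 was at 12.8, 11.7 and 9.51 in control and 18.4, 12.8 and 13.9 with TPPU, where the lowest TPPU value was just under the highest control value (log2 difference 0.37, SE 0.16, adjusted p = 0.627 by limma). Without TPPU replicate 1 the difference of Gins4 was 0.23, and with sample quality weights 0.16. Gins2 was at 1.61, 1.71 and 2.26 and at 2.64, 2.42 and 2.41, with no overlap and a log2 difference of 0.29 (SE 0.14, adjusted p = 0.627 by limma). Exons of Gse1 on the opposite strand overlap 67.3% of the exonic bases of Gins2. The labels' protocol keeps strand, but whether the counting used it is not given in the sources used here. In Gins1, another GINS subunit gene, a single library lay far from the rest. It stood at 5.97, 4.13 and 1.24 in control and 5.43, 5.61 and 7.02 with TPPU. Control replicate 3 was at 24.6% of the mean of the other controls, and the log2 difference of 0.70 (SE 0.36, adjusted p = 0.65 by limma) was 0.23 without it. Gins3 overlapped, between 7.85 and 12.8 over the libraries, and so did Mcm10, a factor that helps to start unwinding, between 1.53 and 2.65. All 6 changes were positive, with a median of 0.25, or 0.20 without control replicate 3, where Gins3 turned negative (-0.09).

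**Figure D3:**
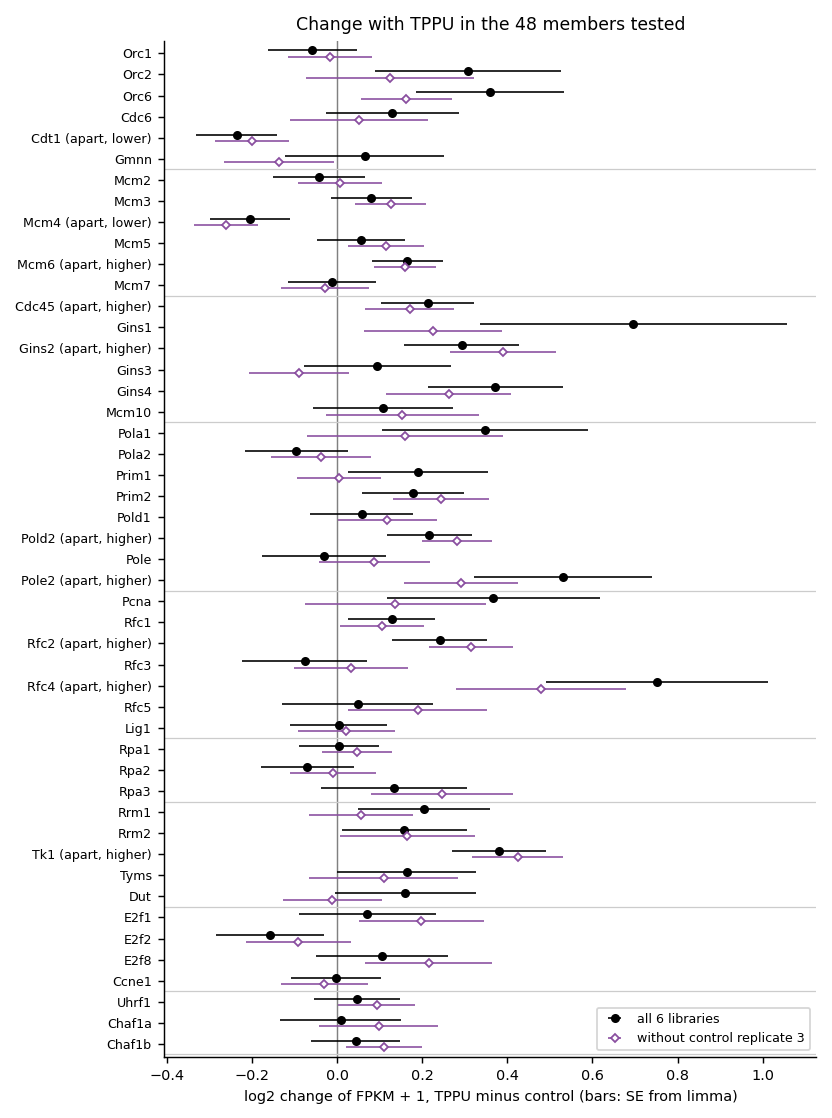
The log2 change of FPKM + 1, TPPU minus control, for the 48 members tested, in the order of their roles. Black circles are fits on all 6 libraries and white diamonds are fits without control replicate 3, each with the SE from limma. Labels mark the members whose groups did not overlap, and the diamonds of Gins1, Pole2, Rfc4 and Pcna lie closer to 0 than their circles.

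Of the polymerase and primase genes, Pold2 and Pole2 had TPPU values wholly above control. Pold2, an accessory subunit of polymerase delta, which copies the lagging strand, was at 19.1, 17.5 and 21.1 in control and 21.9, 23.3 and 22.3 with TPPU. Its log2 change was 0.22 (SE 0.10, limma adjusted p = 0.627), and 0.28 without control replicate 3. Pole2, the accessory subunit of the leading strand polymerase epsilon, was at 4.36, 4.01 and 2.14 in control and 4.75, 6.33 and 5.04 with TPPU. Once more the low value, 2.14, belonged to control replicate 3, and the log2 difference of 0.53 (SE 0.21, adjusted p = 0.596 by limma) was 0.29 without it. The catalytic subunit genes overlapped between the groups. Pold1 lay between 12.2 and 15.8 and Pole between 1.53 and 2.23, with the highest Pole value in control replicate 3. Pola1, the catalytic subunit gene of the priming polymerase, ran from 0.998 in control replicate 3 to 3.08 in TPPU replicate 3, and its partner Pola2 from 5.50 to 7.13. The primase genes Prim1 and Prim2 lay between 4.33 and 7.22 and between 4.37 and 5.85. The median over these 8 genes was 0.18, with 6 positive changes.

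The clamp and its loader were led by Rfc4, which had the largest change of any member. Rfc4, a small subunit gene of the loader at chr16:23113943-23127737 on the minus strand (GRCm38), was at 4.13, 3.88 and 1.84 in control and 4.19, 7.27 and 6.91 with TPPU. TPPU replicate 1 was close to the controls, and the log2 difference of 0.75 (SE 0.26, adjusted p = 0.564 by limma) was 0.48 without control replicate 3. Rfc2, another small subunit gene, was at 5.92, 5.68 and 6.92 in control and 7.78, 7.60 and 7.002 with TPPU, a log2 difference of 0.24 (SE 0.11, adjusted p = 0.627 by limma). Opposite-strand exons of Eif4a2 overlap 12.7% of the exonic bases of Rfc4, and those of Lat2 overlap 15.1% of the exonic bases of Rfc2. Pcna was at 25.0, 31.7 and 17.1 in control and 22.6, 33.5 and 39.5 with TPPU, so that its groups overlapped widely (log2 difference 0.37, SE 0.25, adjusted p = 0.718 by limma). The change of Pcna was 0.14 without control replicate 3, 0.20 without TPPU replicate 3, 0.57 without control replicate 2 and 0.59 without TPPU replicate 1. Pcna has 2 named pseudogenes in the annotation, so its level may depend on how shared reads were counted. Rfc1, Rfc3 and Rfc5 overlapped, at 13.1 to 16.1, 4.65 to 7.12 and 2.77 to 4.40. Lig1, the ligase that joins Okazaki fragments, lay between 11.3 and 14.4, with a change of 0.00. Fen1, the nuclease that trims those fragments, was under the filter, at 1.14, 0.715 and 0.757 in control and 0.544, 0.507 and 0.622 with TPPU. All TPPU values of Fen1 were lower, and the exact two-sided permutation test gave p = 0.1, the smallest that 3 libraries against 3 allow. Exons of Tmem258 and Gm10143 on the opposite strand cover 84.2% of the exonic bases of Fen1, which makes this level uncertain. The RPA genes overlapped between the groups. Rpa1 was at 19.98, 19.5 and 21.6 in control and 21.2, 20.8 and 19.3 with TPPU, and its log2 change was 0.00 (SE 0.09, limma adjusted p = 0.989). Rpa2 and Rpa3 lay between 5.37 and 6.68 and between 5.13 and 8.02.

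Tk1, thymidine kinase, which salvages thymidine for DNA synthesis, had the smallest p-value of the members. The gene lies at chr11:117815526-117826092 on the minus strand (GRCm38). It was at 3.24, 3.22 and 3.64 in control and 4.83, 4.82 and 4.40 with TPPU. Its lowest TPPU value was clear of the highest control value, and control replicate 3 was the control nearest to the TPPU libraries. The log2 change was 0.38 (SE 0.11, limma adjusted p = 0.492), and 0.42 without control replicate 3. With sample quality weights, which gave control replicate 3 a weight of 0.19 and control replicate 1 one of 3.84, Tk1 passed the threshold (limma adjusted p = 0.0448), and 169 of all genes tested passed in all. The other nucleotide genes overlapped between groups. Rrm2, the S-phase subunit of ribonucleotide reductase, was at 7.69, 9.33 and 8.62 in control and 7.97, 11.8 and 9.47 with TPPU, with a log2 difference of 0.16 (SE 0.15, adjusted p = 0.785 by limma). For Rrm2 this was 0.03 when TPPU replicate 2 was left out, 0.28 when TPPU replicate 1 was, and 0.09 when control replicate 1 was. Rrm1, the large subunit gene, ranged from 5.84 to 9.87, Tyms, thymidylate synthase, from 3.27 to 5.20, and Dut, which removes dUTP, from 3.95 to 6.70. All 5 changes were positive with a median of 0.16, or 0.11 without control replicate 3, where Dut turned negative.

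The regulators at the entry to S phase overlapped between the groups. Ccne1, the cyclin E gene that activates CDK2, was at 22.4, 20.8 and 20.3 in control and 23.2, 21.4 and 18.9 with TPPU, with nearly equal means (21.2 ± 1.11 and 21.2 ± 2.14, limma adjusted p = 0.995). Its relative Ccne2 was at 0.0485, 0.0127 and 0 in control and 0.0314, 0.0251 and 0.202 with TPPU. A count of 3 fragments in its longest transcript is worth 0.0435 to 0.056 FPKM, so Ccne2 was at or under that level in all libraries but TPPU replicate 3, and no fold is given (exact permutation p = 0.4). E2f1, an activator, ranged from 5.98 to 8.98, E2f2, another activator, from 3.52 to 5.16 and E2f8, a repressor of the family, from 1.39 to 2.26. The 4 tested members of this group had a median change of 0.03, with 2 positive. The genes that carry chromatin through replication overlapped too. Uhrf1, which recognises hemimethylated DNA behind the fork, was at 19.6, 17.7 and 20.6 in control and 21.2, 18.8 and 19.8 with TPPU (log2 difference 0.05, SE 0.10, adjusted p = 0.91 by limma). Chaf1a and Chaf1b, subunit genes of the histone chaperone CAF-1, lay between 1.96 and 2.71 and between 7.91 and 9.42. Exons of Ubxn6 on the opposite strand overlap 52.5% of the exonic bases of Chaf1a.

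Within the control group the members' values varied with the GC content of their transcripts. In control replicate 3, 12 of the 48 tested members were under 75% of the mean of the other 2 controls, a threshold chosen after the values were seen, and their GC content ran from 41.5% to 50.2%. They were Orc2, Orc6, Gmnn, Gins1, Gins3, Pola1, Prim1, Pole2, Pcna, Rfc4, Rrm1 and Dut. Since they were picked for a low control value, their changes with TPPU are not summarised. Of the 24 members with the lower GC content (40.5% to 49.4%), 13 had their lowest value of the 6 libraries in control replicate 3 and 3 their highest. Of the 24 with the higher GC content (49.8% to 60.7%) 3 had their lowest there and 11 their highest. Over the 48 members the deviation of control replicate 3 from the gene's mean had a Spearman's rho of 0.58 with GC content, and that of TPPU replicate 3 one of -0.64. Over all tested genes these were 0.61 and -0.42. These are correlations across genes that share each library, given as a description, and the part of GC content in the difference between the groups was not tested.

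**Figure D4:**
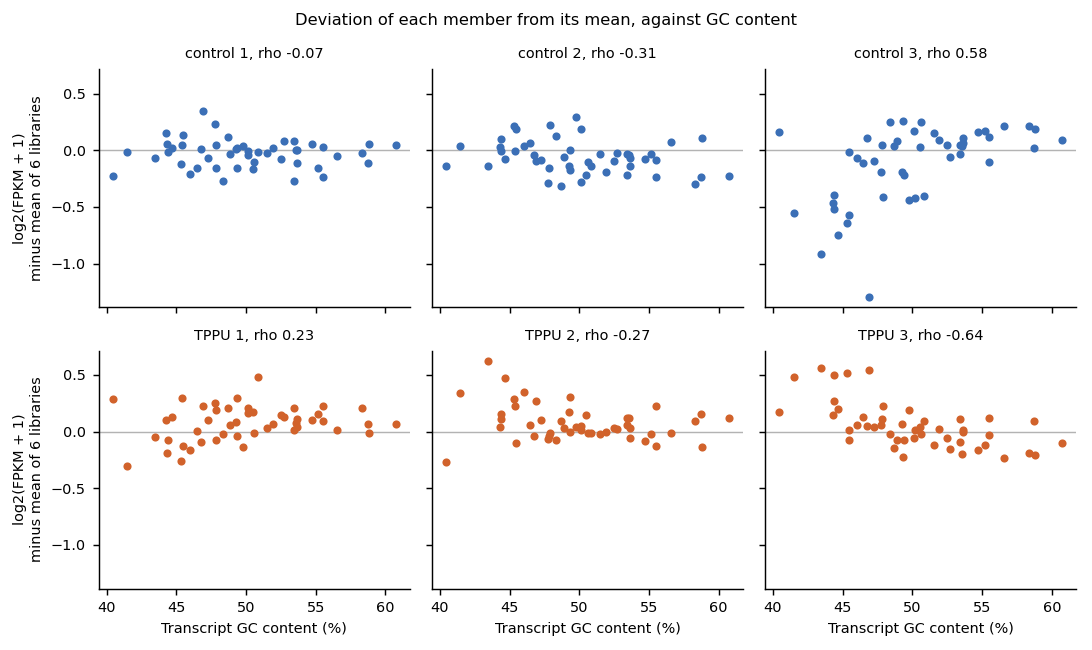
Deviation of each tested member from its mean over the 6 libraries, in log2(FPKM + 1), against the GC content of its longest coding transcript in percent, 1 panel per library. The points of control replicate 3 climb with GC content (rho 0.58), those of TPPU replicate 3 descend (rho -0.64), and those of control replicate 1 do neither (rho -0.07).

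Members of lower GC content had the higher median, a difference that was not tested. Their median log2 change was 0.16 with 21 of 24 positive, or 0.15 without control replicate 3, against 0.05 with 16 of 24 positive in the members of higher GC content, or 0.10 without that library. Each part of 24 had 4 members with TPPU values wholly above control, where 7.48% of all genes were, and 1 wholly below, where 7.88% were. Removing a GC trend from each library was an alternative chosen after seeing the data, and with it the median of the 48 was 0.09, against -0.01 over all genes. In that fit 38 members were positive, where 48.97% of genes were, 8 lay above control, where 8.55% of genes did, and 3 below, where 11.4% did. Without control replicate 3, 6 members changed the sign of their difference. Gmnn went from 0.07 to -0.14, Gins3 from 0.09 to -0.09 and Dut from 0.16 to -0.01. Mcm2 went from -0.04 to 0.01, Pole from -0.03 to 0.09 and Rfc3 from -0.08 to 0.03.

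**Figure D5:**
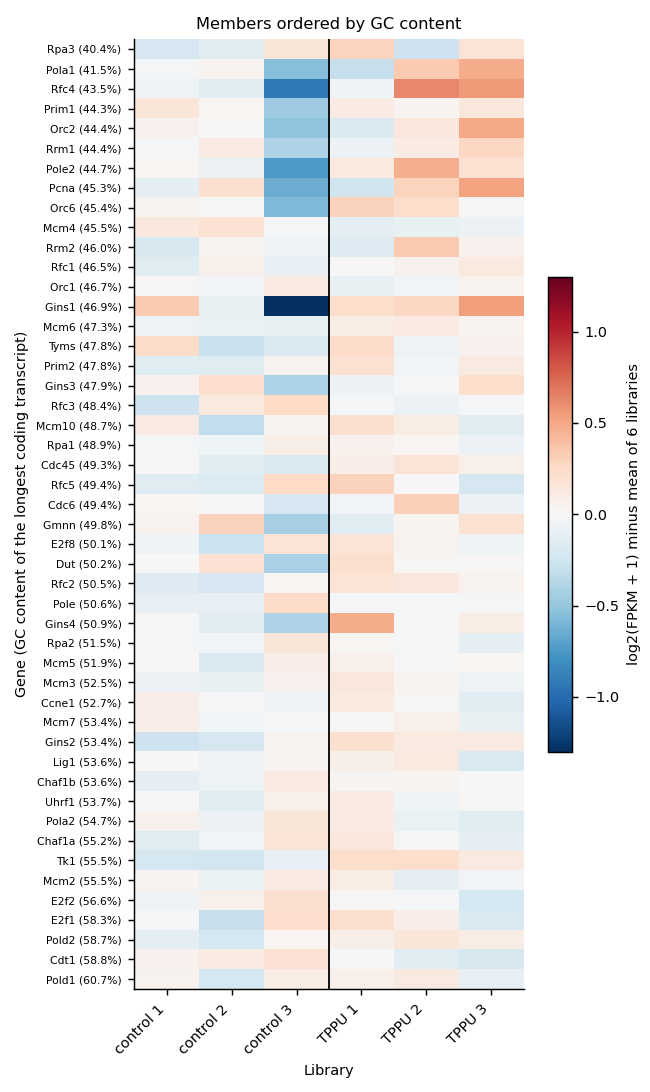
Deviation of the 48 tested members (rows, from the lowest GC content at the top to the highest at the bottom) from their mean over the 6 libraries (columns), in log2(FPKM + 1), with blue for below and red for above. Many of the upper genes are blue in control replicate 3, darkest for Gins1, where 13 of the 24 members of lower GC content have their lowest value.

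Of the other genes of DNA synthesis and the cell cycle, 0 of 107 passed the adjusted threshold in limma. At an unadjusted p under 0.05 there were 7 (6.54%), all higher with TPPU, against 7.89% of all genes in either direction and 4.19% higher. The counts of the lists below stand beside 54.4% positive, 7.48% wholly above and 7.88% wholly below control over all genes. Of 26 further replisome genes tested, 18 had a positive change (median 0.07, 2 wholly above control and 0 below). Orc5, an origin recognition subunit, was at 3.01 ± 0.46 in control and 4.28 ± 0.56 with TPPU (log2 difference 0.40, SE 0.14, adjusted p = 0.564 by limma), with no overlap. Tipin, of the fork protection complex, was at 10.5 ± 2.55 and 13.4 ± 0.77, and Pole3, a small subunit of polymerase epsilon, at 7.40 ± 1.54 and 9.32 ± 1.47. Both overlapped.

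Of 12 further nucleotide genes 11 had a positive change and 4 lay wholly above control, with a median of 0.16, or 0.18 without control replicate 3. Dctpp1, which removes damaged deoxycytidine triphosphates, was at 13.3, 15.8 and 15.1 in control and 18.4, 18.8 and 19.9 with TPPU. Its groups were clear of each other, with a log2 difference of 0.35 (SE 0.10, adjusted p = 0.478 by limma, or 0.0331 with sample quality weights). Dtymk, thymidylate kinase, which acts after TK1 in the same route to thymidine triphosphate, was at 11.8, 11.3 and 11.6 in control and 17.4, 13.4 and 13.1 with TPPU (log2 difference 0.30, SE 0.12, adjusted p = 0.614 by limma). TPPU replicate 1 was the highest of the libraries for Dtymk, whose difference was 0.18 without it, and the other 2 TPPU libraries were also above all controls. Shmt1, which feeds one-carbon units to thymidylate synthesis, was at 9.47 ± 1.06 and 11.6 ± 0.74, without overlap.

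Regulators of the step from G1 to S phase, 21 further genes tested, had a median of 0.03, with 1 wholly above and 1 wholly below control. The lower was Skp2, a ubiquitin ligase subunit that targets p27 and CDT1, at 4.27 ± 0.21 and 3.54 ± 0.08 (log2 difference -0.22, SE 0.11, adjusted p = 0.638 by limma). Rbl1, which encodes the retinoblastoma relative p107, was at 3.52 ± 0.95 and 4.46 ± 0.50, and Ccnd3, cyclin D3, at 7.98 ± 1.10 and 9.06 ± 0.76, both with overlap. The log2 difference of Rbl1, 0.29, was 0.11 without control replicate 3. Of 6 further chromatin genes 4 were positive, with a median of 0.29 that was 0.06 without control replicate 3. Asf1b, a histone chaperone of S phase, was at 7.58 ± 0.75 and 9.85 ± 0.98 and did not overlap, with a log2 change of 0.34 (0.28 without control replicate 3). The histone chaperone genes Nasp and Rbbp4 were low in control replicate 3, at 51.4% and 43.4% of the other controls, and their changes of 0.37 and 0.46 were 0.11 and 0.09 without it. Without control replicate 2 the change of Rbbp4 was 0.70.

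Of 8 checkpoint genes 7 were positive, with a median of 0.03. Chek1, the kinase that answers stalled forks, was at 1.83 ± 0.39 in control and 2.73 ± 0.29 with TPPU without overlap (log2 difference 0.40, SE 0.15, adjusted p = 0.564 by limma), or 0.28 without control replicate 3. Rad17, a checkpoint clamp loader, was at 2.51 ± 0.27 and 3.02 ± 0.38, and Wee1, the kinase that holds CDK1 inactive, at 1.80 ± 0.75 and 1.25 ± 0.17. For comparison, 34 mitotic genes tested had a median of 0.14 with 28 positive, and a median of 0.05 without control replicate 3, where that of the replication genes was 0.11. The difference between these lists was not tested. Among the mitotic genes Plk1, a mitotic kinase, was at 3.62 ± 0.27 and 4.80 ± 0.39 without overlap, and Pttg1, which encodes securin, at 10.8 ± 0.72 and 12.8 ± 1.40 without overlap. The kinesin gene Cenpe was at 2.67 ± 0.55 and 3.61 ± 0.44 with overlap, and its log2 difference of 0.34 was 0.23 without control replicate 3.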

How the data were processed

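The authors deposited 1 table of FPKM for the 6 libraries. The unit was taken from the table's name and values. The submitters' processing notes name mm10 as the build. How reads were aligned and counted, and with which annotation, is not stated in the sources used here. Per the labels' protocols, poly(A) RNA was captured with oligo(dT) and the second strand marked with dUTP. Columns were matched by library name.

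The 9728 genes that reached 1 FPKM in 3 or more libraries (8291 did not) were tested on log2(FPKM + 1), which understates changes of low genes, by limma 3.58.1 in R 4.3.3, using its mean-variance trend, group as the sole term, two-sided tests and Benjamini-Hochberg adjustment over all genes at 0.05. The 2 members under the filter were compared by exact permutation. The members and lists were chosen with earlier results of these data known, so no set test or p over a list is given. Every library's value is given for members whose groups did not overlap or whose unadjusted p was under 0.05 and for the most abundant of each role, and of each other list the 3 genes with the smallest p are named, Dctpp1 and Dtymk by library as a choice made after seeing the values. Members outside this rule that are given by library (Gmnn, Orc6, Gins1 and Ccne2) were chosen after their values were seen.

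Depth was estimated as the library total at which low FPKM values of genes with 1 annotated transcript were whole numbers of fragments. At the depth chosen, the one with the highest share, 92.5% to 94.8% of these values were within 0.1 fragments of a whole number. An even spread would give 20%, and the median share over all depths tried was 11.9% to 15.7%. Floors of 3 fragments cover counting error only. GC content, length, positions and overlaps came from GENCODE M21 (GRCm38, the same assembly as mm10), which gave GC for 97.9% of tested genes. Promoter sequences are from RefSeq (GRCm38.p6). The alternatives were other pseudocounts, filters, scalings, no trend, quality weights, the replicate number as a block, each library left out, and, chosen after seeing the data, removal of a GC or length trend by loess (span 0.3). The fits were tested on simulated data. Python 3.11.15, numpy 2.4.6, pandas 2.3.3 and matplotlib 3.10.9 were used.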

Additional observations from a re-analysis of the deposited data

How the results depend on the processing

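Of 583 values of named genes under the 17 alternatives, 571 kept their direction and their side of the threshold. Many of these genes were named for their values in these same data, and some alternatives leave every log2 change as it was. The count of 571 was thus partly fixed in advance and does not measure how stable the results are. Tk1 and Dctpp1 passed with sample quality weights, at log2 changes of 0.42 and 0.44, and 10 values changed sign, all of genes with a change near 0. Rpa1 was at -0.015 with quantile normalization and -0.018 with the GC trend removed, and between -0.024 and 0.047 with each library left out. Ccne1 was at 0.013 with the GC trend removed and between -0.067 and 0.072 with each library left out, and Uhrf1 between -0.011 and 0.093. The number of genes past the threshold was 169 with sample quality weights (1 of them a member) and 9 with the GC trend removed, and 0 to 6 with each library left out. With each library left out the number of members wholly above control ran from 10 to 13 and the number wholly below from 2 to 4. The shares of all genes rose too, to between 10.99% and 17.02% above and between 10.28% and 14.44% below. The higher counts are thus not particular to the members. The median change of the members ran from 0.063 to 0.13 with each library left out. At a mean of at least 5 FPKM, where 33 members were tested, 4 lay above control, against 7.84% of genes. Same-numbered libraries did not deviate together (correlations of -0.30, 0.15 and -0.40 for replicates 1, 2 and 3), and control replicate 3 correlated best with TPPU replicate 1 (0.51). These correlations showed no pairing by number. They cannot exclude one, since there were few libraries and their deviations also varied with GC content. With the replicate number as a block 0 genes and 0 members passed, and the smallest adjusted p of a member by limma was 0.898. In this balanced design the block cannot move the median of 0.11. The 8 members above and 2 below are counted without the block, as are the 7.48% and 7.88% of genes. The causes of these shifts were not tested.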
